A study of Sinopodophyllum hexandrum with 2 samples.

Results

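The entries described here are those of 5 conserved plant miRNA families, miR160, miR166, miR168, miR390 and miR396, in small RNA libraries of mature leaves of Sinopodophyllum hexandrum, also named Podophyllum hexandrum, a Himalayan medicinal herb. They were taken by name from the lists of conserved miRNAs deposited for each library, wherever the number after miR was one of these 5. This gave 1 of the 107 names in the list of the treated library and 11 of the 155 names in the list of the control library, or 11 of 181 names, 9 of 122 distinct sequences and 5 of 47 families over both lists. The series held 1 treated and 1 control leaf library, and the sources used here name neither the kind of treatment nor the number of plants. The lists gave names and mature sequences without read numbers, so an entry was either listed or not listed for a library, and no level, fold change, replicate error or test was possible. The number of reads behind each list is unknown.

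In plants, a miRNA is cut from a hairpin precursor as a duplex, of which the guide strand is loaded into an Argonaute protein and directs the cleavage or translational repression of mRNAs with extended complementarity to it. The other strand is the passenger strand and is usually degraded. These families act on leaf patterning, auxin response and the Argonaute machinery. miR166 represses the HD-ZIP III genes that specify the upper leaf face. miR390, loaded into AGO7, triggers tasiRNAs from TAS3 transcripts, and these tasiRNAs repress auxin response factor genes. miR160 targets another group of auxin response factor genes, miR396 targets growth-regulating factor (GRF) genes that promote cell proliferation in the leaf, and miR168 targets AGO1 itself.

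The 9 distinct sequences are printed by family, because they show which strand of each miRNA was listed and how the entries of a family differ. Capitals mark the seed (bases 2 to 8 from the 5′ end), and the prefix of each name is the code of the species of the reference entry. All were read from the authors' deposited lists and may be the sequences of the reference entries, not of reads of this plant.
aau-miR160, in the treated and the control list: uGGCAUACagggagccaggca
stu-miR166c-3p, in the control list: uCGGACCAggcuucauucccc
osa-miR166e-3p, in the control list: uCGAACCAggcuucauucccc
aau-miR168, in the control list: aUUCAGUUgaugcaaggcgggauc
bna-miR390a, zma-miR390b-5p and aly-miR390b-5p, in the control list: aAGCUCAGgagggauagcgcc
stu-miR390-5p, in the control list: aAGCUCAGgagggauagcacc
smo-miR396, in the control list: uUCCACGGcuuucuugaacc
zma-miR396b-3p, in the control list: gUUCAAUAaagcugugggaaa
sly-miR396a-3p, in the control list: gUUCAAUAaagcugugggaag

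The treated list held miR160 alone of the 5 families, and the control list held all 5. Thus 4 of the 5 families stood in the control list only, where 36.2% of the 47 families of either list did so. Of the 11 names, 10 were in the control list only (40.9% over all 181 names), and of the 9 distinct sequences, 8 were in the control list only (42.6% over all 122). No family, name or sequence of the 5 was in the treated list only. Over all entries this held for 17.0% of families, 14.4% of names and 16.4% of sequences. The families in both lists were 1 of 5, or 20% (exact 95% binomial interval 0.505% to 71.6%), and over all families they were 22 of 47, or 46.8%. By name they were 1 of 11, or 9.09% (0.230% to 41.3%), against 44.8% over all names, and by sequence 1 of 9, or 11.1% (0.281% to 48.2%), against 41.0% over all sequences. The value over all entries lay within the interval by family and by sequence and above it by name. Families, names and sequences are not independent samples, and 3 of the names are the same sequence, so the intervals describe how few entries there are and test nothing. These entries made up 0.935% of the names in the treated list and 7.10% in the control list.

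**Figure D1:**
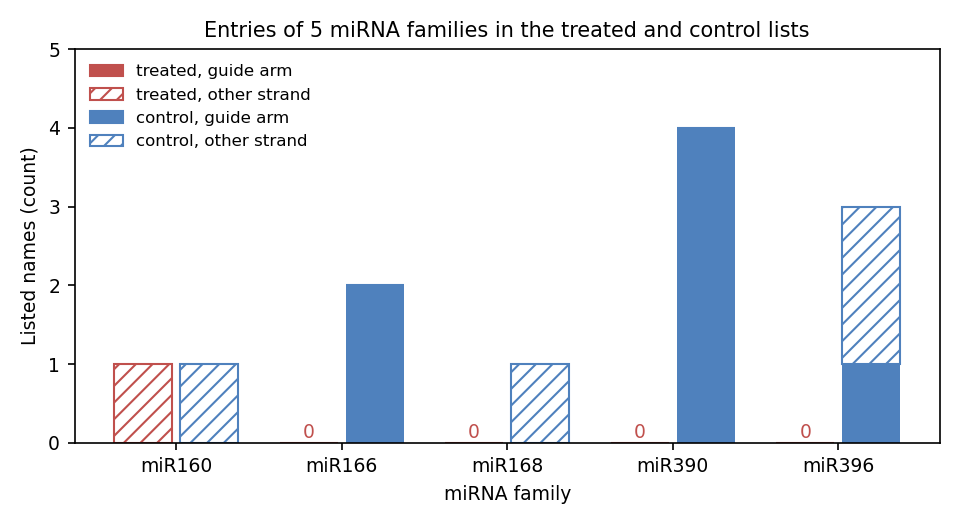
Number of listed names (vertical axis) of each of the 5 families (horizontal axis) in the treated list (red) and the control list (blue). Filled bars are for the guide arm. Hatched bars, labelled other strand, are for any strand other than the guide and not only the passenger strand. The treated list has 1 hatched entry, miR160, and the control list has entries of every family, with filled bars for miR166, miR390 and miR396.

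miR166, the regulator of HD-ZIP III genes, had 0 names in the treated list and 2 in the control list. Both control entries were of the 3′ arm, from which the guide of this family comes, and both were of 21 nt and began with U, the 5′ base that AGO1 is known to favour. The potato entry stu-miR166c-3p has the sequence widely shared among flowering plants. The rice entry osa-miR166e-3p differed from it by the single substitution G4A, counted from the 5′ end with the potato base first. This position lies in the seed, so the 2 entries of miR166 did not share one. miR165, a close relative of miR166 with the same targets in Arabidopsis, was in neither list.

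miR390, the trigger of TAS3 tasiRNAs, had 0 names in the treated list and 4 in the control list, the most of the 5 families. The same sequence stood under 3 of these names, from Brassica napus (bna-miR390a), maize (zma-miR390b-5p) and Arabidopsis lyrata (aly-miR390b-5p). The potato entry, stu-miR390-5p, differed from it by G19A, near the 3′ end and outside the seed, so all 4 names shared the seed AGCUCAG. All were guide-strand entries of 21 nt that began with A, which is typical of this family. A 5′ A was found in 5 of the 70 distinct sequences of the treated list (7.14%) and in 15 of the 102 of the control list (14.7%), and those of the control list included the 2 of miR390 and that of miR168.

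miR396, the regulator of GRF genes, had 0 names in the treated list and 3 in the control list, and it was the only one of the 5 families with both arms listed. smo-miR396, named for the spikemoss Selaginella moellendorffii, was of the 5′ arm, which carries the guide. It was of 20 nt, the shortest of the 9 sequences. The maize and tomato entries, zma-miR396b-3p and sly-miR396a-3p, were of the 3′ arm, began with G and differed from each other by A21G at the last base, so they shared the seed UUCAAUA. When smo-miR396 was laid against either of them with the 2-base 3′ overhang of a miRNA duplex, 18 of the 19 facing positions paired, 16 by Watson-Crick pairs and 2 by G:U wobble. The names of these arms carry the codes of different species, and the sequences may be those of reference entries. The pairing therefore describes the listed entries and does not show a duplex in this plant. The 3′-arm sequences also had the lowest GC contents of the 9, 38.1% for zma-miR396b-3p and 42.9% for sly-miR396a-3p, while the others had between 50.0% and 61.9%.

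miR160 had 1 name in the treated list and 1 in the control list, the same entry aau-miR160, named for Acacia auriculiformis. It was of 21 nt with a GC content of 61.9% and began with U. Its sequence reads as the reverse complement of the guide known to target auxin response factor genes. No other entry named miR160 was in either list, and the lists were not searched for the guide sequence itself.

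miR168, the regulator of AGO1, had 0 names in the treated list and 1 in the control list, aau-miR168, also named for Acacia auriculiformis. At 24 nt it was the longest of the 9 sequences, and it began with A. Sequences of 24 nt were 2 of 70 in the treated list (2.86%) and 6 of 102 in the control list (5.88%), so this length was rare in both. The listed sequence contains the reverse complement of the passenger strand known from Arabidopsis, and it is not the strand that directs AGO1 cleavage. Both entries with the prefix aau in the control list were thus of a strand other than the known guide, and 1 of them recurred in the treated list.

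By strand, 7 of the 11 names and 5 of the 9 sequences were of the guide arm, and these belonged to miR166, miR390 and miR396. None of the 7 guide-arm names was in the treated list, and all were in the control list. Strands were assigned for these 11 names alone, so no guide-arm share over all names is available. Of all 181 names, of any strand, 40.9% were in the control list only. Of the 4 names of another strand, 1 was in the treated list and all 4 were in the control list. Families with a guide-arm entry therefore numbered 0 of 5 for the treated list and 3 of 5 for the control list, a count chosen after seeing the data. The strand was assigned from the name's arm and from general knowledge of each family, since the lists do not mark guides.

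Between families the 9 sequences were unrelated. Distances were counted in edits, that is, substituted, inserted or deleted bases. The 31 pairs of sequences from different families lay 10 to 16 edits apart, whereas the pairs of the same arm within miR166, miR390 and miR396 lay 1 edit apart. smo-miR396 lay 12 edits from either 3′-arm entry of its own family. The 9 sequences held 7 distinct seeds, and none of these stood at bases 2 to 8 of any of the 113 sequences of other families. The nearest sequence of another family was 8 to 10 edits away. For miR390 it belonged to miR3627 or miR5225, for miR160 to miR535, and for smo-miR396 to miR156 and miR408.

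**Figure D2:**
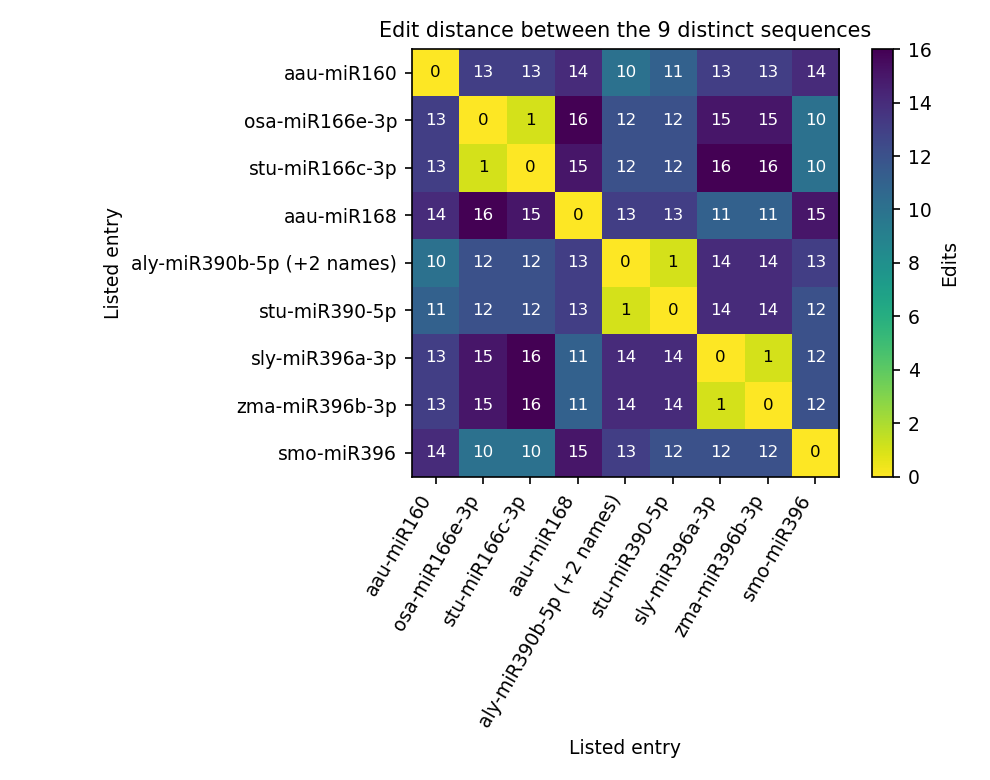
Edit distance (colour and number) between each pair of the 9 distinct sequences, named by 1 entry each on both axes. The pairs 1 edit apart lie within miR166, miR390 and the 3′ arm of miR396, and all pairs of different families are 10 to 16 edits apart.

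The control-only entries of these families had no close relative in the treated list, as was also the case for most other control-only families. The distance of each of the 8 control-only sequences to the nearest treated sequence was 8 to 11 edits, with a median of 10, and 0 of the 8 lay within 5 edits. The 13 other control-only families had 1 sequence each, at 4 to 11 edits with a median of 10, and 11 of them lay at 7 to 11 edits. The exceptions were miR319 and miR894, both at 4 edits. Control-only sequences of families that were in both lists numbered 31, lay at 1 to 10 edits with a median of 3, and were within 5 edits in 27 cases. Over all 52 control-only sequences, 44.2% were more than 5 edits from every treated sequence. A short distance goes with a family that is in both lists. These distances thus restate that miR166, miR168, miR390 and miR396 had no entry in the treated list. miR168 had 1 listed sequence, so for it a missing family and a missing single variant are the same.

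**Figure D3:**
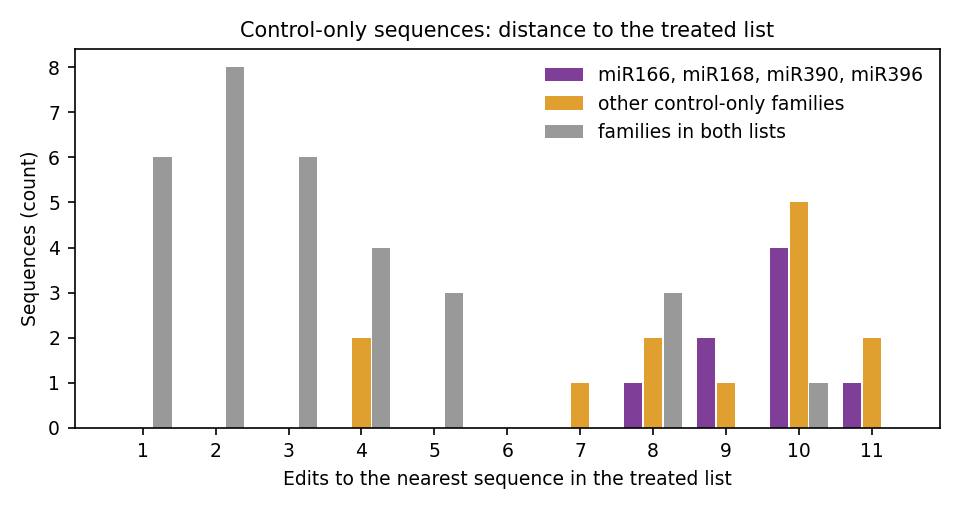
Number of control-only sequences (vertical axis) by the edits to the nearest sequence in the treated list (horizontal axis), for miR166, miR168, miR390 and miR396 (purple, 8 sequences), for the other control-only families (orange, 13 sequences) and for families in both lists (grey, 31 sequences). All purple sequences are at 8 to 11 edits, as are most orange ones, with 11 at 7 to 11, and 27 of the grey ones are at 1 to 5.

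By the number of names, miR166, miR390 and miR396 had 2, 4 and 3 control names and 0 treated names each. Of the 16 families with more than 1 name in the control list, 13 were in the treated list as well, and the other 3 were miR166, miR390 and miR396. The remaining 14 control-only families, miR168 included, had 1 name each. Seen from the other side, all 10 families with more than 1 treated name were in the control list, and the treated-only families had 1 name each. miR166, miR390 and miR396 pass a minimum of control names only through the list that holds them, so these counts are a description and support nothing about the treated library. The comparison was chosen after the values were seen, and the number of names of a family may follow how many species the reference collection covers.

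**Figure D4:**
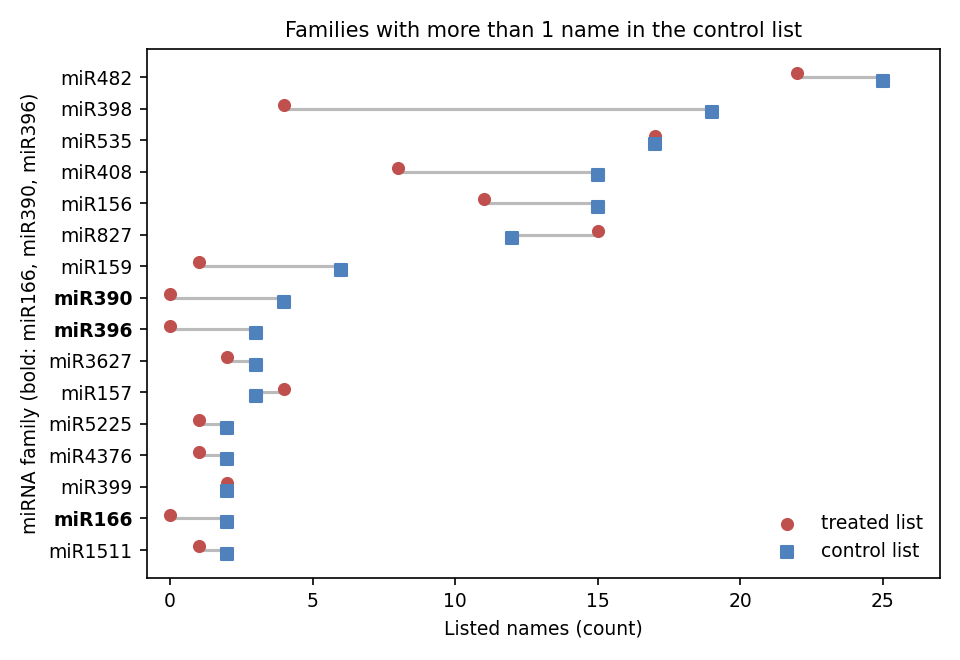
Number of listed names (horizontal axis) in the treated list (red circles) and the control list (blue squares) for the 16 families with more than 1 control name, with miR166, miR390 and miR396 in bold. The families were selected by their control names, and among these 16 the bold ones are at 0 in the treated list.

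The names of these entries came from 8 species codes, of which 6 had a name in the treated list. Over the 8 codes, 26 names stood in the treated list and 35 in the control list, with 17 in both. For Arabidopsis lyrata there were 7 names in each list, of which 6 were shared, and the control name without a treated match was aly-miR390b-5p. Rice had 9 names in each list with 5 shared, and potato had 5 in the treated and 8 in the control list with 3 shared. Maize had 2 names in the treated and 3 in the control list with 0 shared, tomato had 2 and 3 with 2 shared, and aau had 1 and 2 with 1 shared. The codes bna and smo had no name in the treated list, and 1 and 2 in the control list. The 81 names shared by the lists followed the same order in both, so the position of an entry in its list was not read as a rank of abundance.

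Other families known for leaf development, auxin response or small RNA machinery were mostly not listed. Of 15 such families, 3 were in both lists (miR156, miR157 and miR159), 1 was in the control list only (miR319, a regulator of TCP genes in the leaf), 0 were in the treated list only and 11 were in neither. The 11 included miR162, which targets DCL1, miR403, which targets AGO2, miR164, which targets NAC genes, and miR167 and miR393, which act on auxin response factors and auxin receptors. By name, with miR168, the control list held 1 of the 3 families that target small RNA machinery genes, and the treated list held 0. The 1 is the miR168 listing already given above, and 36.2% of all 47 families were in the control list only. The miR168 entry was of a strand other than the guide, so neither list held a guide-arm entry of these 3 families.

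The separate count table of predicted miRNA loci held 13445 reads for the treated library and 3785 for the control library. Its 117 rows included 1 with a miRNA name, and 0 with a name of the 5 families, so it gave no read number for them. The treated library thus had the shorter list of conserved miRNAs and the higher total at predicted loci. These totals are not the depth of the libraries, and the part of depth in the missing entries was not tested. Between 1 treated and 1 control library, the treatment and any other difference between the libraries cannot be told apart.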

How the data were processed

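Small RNA of 1 treated and 1 control leaf library was sequenced single-end. Adapters were trimmed with cutadapt, per the submitters' processing notes. The sources used here name no mapper, reference collection, allowed mismatches or filter. The authors deposited a list of conserved miRNA names and sequences per library, without abundance, and a table of raw read counts per predicted locus, of which the totals and names alone were used. Each list was assigned by the library code in its name, which also stands in the sample's title.

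Families were read from the number after miR. All entries of the 5 families were named, and other families only from a list of 15 or where nearest in sequence. The members and lists were chosen with earlier results of these data known. Distances are Levenshtein edits (edlib 1.3.9, Python 3.11.15). Intervals are exact binomial (Clopper-Pearson, scipy 1.17.1). Duplex pairing was ungapped with a 2-base 3′ overhang. Distances and perfect Watson-Crick pairing were tested on simulated sequences, and name parsing on fixed example names. The counting of G:U wobble and unpaired positions was not tested. Alternatives varied the unit of overlap, the edits allowed, and the strands and lengths kept.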

Additional observations from a re-analysis of the deposited data

How the results depend on the processing

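The number of listed names was 1 in the treated and 11 in the control list. When entries were found by sequence within 3 edits in place of the name, it was the same. No sequence of another family lay closer than 8 edits to these entries, so that result was fixed in advance. The number was 1 and 10 without entries outside 20 to 22 nt. Without entries of a strand other than the guide it was 0 and 7, since the miR160, miR168 and 3′-arm miR396 entries are left out. The share in both lists was 20% by family, 9.09% by name and 11.1% by sequence. With 3 or 5 edits allowed it was also 11.1%. This too was fixed in advance, since the control-only sequences lay 8 to 11 edits from the nearest treated sequence. It was 0% where a family counted only through a guide-arm entry, an alternative chosen after seeing the data. Unknown depth limits every absence from a list. No paired analysis was possible because each group has a single library and the lists hold no values.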
